A study of Homo sapiens with 9 samples.

Results

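The genes described here are 9 human regulators of circular RNA formation, chosen by name: QKI, ADAR, ADARB1, DHX9, ILF2, MBNL1, RBFOX2, G3BP1 and G3BP2. All 9 were found by Ensembl identifier among the 61853 genes listed in the deposited table, and all 9 passed the filter on low counts. They were measured by sequencing of ribosomal RNA-depleted total RNA in 293T, a line of human embryonic kidney cells with the SV40 large T antigen. The 2 groups compared were cells given DIS3-sh1, an shRNA against DIS3 labelled as a knockdown, and cells given a scramble shRNA (Scramble), labelled wild type, with 3 libraries each. DIS3 is a catalytic nuclease of the nuclear RNA exosome, and the series asks how its loss affects circular RNAs. The labels also name a second shRNA, DIS3-sh2, which is not analysed here, so every result rests on 1 hairpin in 1 cell line. Nothing beyond the words biological replicates says how the replicates were separated, so p-values measure the spread between these libraries.

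A circular RNA forms when the spliceosome joins the end of an exon back to the start of the same or an earlier exon. Pairing of inverted Alu repeats in the flanking introns, or RNA-binding proteins that bring these introns together, favours such back-splicing. QKI binds flanking introns and promotes circle formation, MBNL1 belongs to the muscleblind family, whose fly member drives a circle from its own gene, and RBFOX2 is a splicing regulator that binds near alternative exons. ADAR and ADARB1 edit adenosines in double-stranded RNA, and DHX9 unwinds it, activities that act against pairing of the introns. ILF2 is a subunit of a double-stranded RNA-binding complex that promotes circle formation. G3BP1 and G3BP2 are scaffolds of stress granules, and G3BP1 acts with the helicase UPF1 in the decay of highly structured RNAs, circular ones included, so that their place in the set concerns turnover more than formation.

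The regulators were lower with DIS3-sh1. Of 9, 8 were called lower and 0 higher at an adjusted p under 0.05 (edgeR quasi-likelihood test, adjusted over all 19591 genes tested), and ADARB1 was not called. Over all genes tested, 32.6% were called lower and 34.5% higher, 67.0% in all, and among the 6572 genes at least as abundant as the lowest of the 9 regulators, 54.4% were called lower. In all 9 the 3 DIS3-sh1 libraries lay below the 3 Scramble libraries, a pattern seen for 34.2% of all genes tested. The opposite pattern was seen for 35.6%, so that the groups lay apart in one direction or the other for 69.8% of genes. These shares were not computed for the genes at least as abundant as the lowest regulator, where lower calls were more frequent. The sizes fell apart into 4 genes near a halving (MBNL1, G3BP1, DHX9 and G3BP2), ILF2 in between, and 4 genes that changed by less than 15% (QKI, RBFOX2, ADAR and ADARB1). The log2 fold change (DIS3-sh1 over Scramble) had a median of -0.50 over the 9 regulators, 0.02 over all genes tested and -0.15 over the genes at least as abundant.

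Promoter windows are shown for the 4 genes that fell together and for ADAR and ADARB1, which changed little, to set the sequences of both kinds side by side. Each is the first window listed for the gene in RefSeq on GRCh38.p14, from 250 bases before to 50 bases after an annotated start, written 5′ to 3′ on the strand of the gene. G3BP2, MBNL1, ADAR and ADARB1 have further annotated starts, and the data do not show which was used. The table of windows had entries for 7 of the 9 regulators, all but QKI and RBFOX2. Capitals mark matches on either strand. The motifs searched were the TATA box, read as TATAAA and bound by the TATA-binding protein, and the CCAAT box that NF-Y binds, read as these letters. They also included the GC box of Sp factors, read as GGGCGG, and the E-box of basic helix-loop-helix factors, read as CACGTG. The cAMP response element was read as TGACGTCA and the motif of ETS factors as CCGGAAG, and the NRF1 motif was searched as well.
MBNL1 (chr3:152268679-152268978, plus strand): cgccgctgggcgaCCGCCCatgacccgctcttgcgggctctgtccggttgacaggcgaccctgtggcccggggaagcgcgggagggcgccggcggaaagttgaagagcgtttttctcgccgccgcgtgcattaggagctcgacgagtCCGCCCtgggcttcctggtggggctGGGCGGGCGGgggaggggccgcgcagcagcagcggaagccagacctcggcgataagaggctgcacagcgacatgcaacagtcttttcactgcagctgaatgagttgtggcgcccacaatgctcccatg
G3BP1 (chr5:151771704-151772003, plus strand): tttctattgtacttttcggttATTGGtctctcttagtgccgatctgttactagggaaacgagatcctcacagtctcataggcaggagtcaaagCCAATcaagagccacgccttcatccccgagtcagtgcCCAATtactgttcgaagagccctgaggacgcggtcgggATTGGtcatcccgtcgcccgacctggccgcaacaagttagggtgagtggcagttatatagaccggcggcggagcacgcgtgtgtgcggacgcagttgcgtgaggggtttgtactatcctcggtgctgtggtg
DHX9 (chr1:182839097-182839396, plus strand): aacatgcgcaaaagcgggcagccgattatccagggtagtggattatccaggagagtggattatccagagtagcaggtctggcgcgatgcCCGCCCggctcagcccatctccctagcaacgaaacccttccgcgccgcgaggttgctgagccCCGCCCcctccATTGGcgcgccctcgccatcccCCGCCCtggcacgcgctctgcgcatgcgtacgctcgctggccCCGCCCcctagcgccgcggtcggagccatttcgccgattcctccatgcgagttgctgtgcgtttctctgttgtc
G3BP2 (chr4:75673108-75673407, minus strand): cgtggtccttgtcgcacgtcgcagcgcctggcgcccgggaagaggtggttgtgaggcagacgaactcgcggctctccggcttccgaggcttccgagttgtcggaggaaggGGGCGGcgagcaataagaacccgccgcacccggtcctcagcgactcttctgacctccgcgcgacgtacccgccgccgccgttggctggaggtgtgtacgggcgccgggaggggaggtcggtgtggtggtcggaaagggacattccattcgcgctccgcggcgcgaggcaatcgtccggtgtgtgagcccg
ADAR (chr1:154627948-154628247, minus strand): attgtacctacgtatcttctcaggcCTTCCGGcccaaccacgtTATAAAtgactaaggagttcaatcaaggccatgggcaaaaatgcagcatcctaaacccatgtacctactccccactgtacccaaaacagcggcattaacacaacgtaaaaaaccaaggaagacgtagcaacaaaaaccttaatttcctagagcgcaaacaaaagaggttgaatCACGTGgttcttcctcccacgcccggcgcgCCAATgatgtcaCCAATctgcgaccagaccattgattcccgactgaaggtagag
ADARB1 (chr21:45074328-45074627, plus strand): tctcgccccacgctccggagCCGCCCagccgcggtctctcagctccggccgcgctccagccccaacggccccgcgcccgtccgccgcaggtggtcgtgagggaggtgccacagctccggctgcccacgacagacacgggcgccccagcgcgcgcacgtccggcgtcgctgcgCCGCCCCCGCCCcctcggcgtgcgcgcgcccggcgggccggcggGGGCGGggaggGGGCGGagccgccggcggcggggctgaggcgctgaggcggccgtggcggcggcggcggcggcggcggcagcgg

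No motif searched for was present in all 4 windows of the strongly reduced genes. The GC box was found 4 times in DHX9, 4 times in MBNL1, where 2 matches overlap, and 1 time in G3BP2, and 5 times in ADARB1. It occurs in 45.0% of all 35116 windows. The CCAAT box was found 4 times in G3BP1, 1 time in DHX9 and 2 times in ADAR, and it occurs in 34.6% of all windows. ADAR also had matches to the letters of the TATA box, the E-box and the ETS motif, which occur in 11.5%, 7.26% and 10.3% of all windows. Its TATAAA match lay near the upstream end of the window, far from the annotated start. Matches were counted wherever they lay in a window. The cAMP response element and the NRF1 motif, in 1.85% and 5.78% of all windows, had no match in these 6 windows. Further windows of G3BP2, not shown, did hold them. A cAMP response element lay in chr4:75673546-75673845, and an NRF1 motif and an E-box lay in chr4:75724388-75724687. The GC content was 67.7% for MBNL1, 55.0% for G3BP1, 65.3% for DHX9 and 69.0% for G3BP2, against 47.7% for ADAR and 84.3% for ADARB1, with a median of 58.7% over all windows.

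The libraries held 19800892 to 21100677 counts in DIS3-sh1 and 20722775 to 23532148 counts in Scramble. Levels are given as CPM, counts scaled to a common library size with TMM factors, and the lowest value of any of the 9 regulators rested on 647 counts in a library. DIS3 itself had 27.4 ± 0.73 CPM in DIS3-sh1 and 179.7 ± 5.62 CPM in Scramble (SD, n = 3 each), with no overlap. All 8 markers of the line were detected in both groups, and all 8 were called, 4 higher and 4 lower. KRT8 (2.81 on the log2 scale), PAX2 (1.36), KRT18 (0.28) and VIM (0.09) were higher in DIS3-sh1, and INA (-1.19), LIN28B (-0.75), NEFL (-0.25) and NEFM (-0.14) were lower. Their summed level, most of it VIM, was 1670 to 1683 CPM in DIS3-sh1 and 1630 to 1643 CPM in Scramble, and the marker sums are CPM of the library totals without TMM factors. The part of these differences in the results below was not tested. Of 8 markers of other cells, CD3E, HBB and COL1A2 were at 0 in every library, and COL1A1 made up most of the summed 24.1 to 28.0 CPM in DIS3-sh1 and 14.2 to 15.2 CPM in Scramble. The share of counts on small structural RNAs was 8.24% to 9.38% in DIS3-sh1 and 4.94% to 5.14% in Scramble, with the highest share in DIS3-sh1 replicate 1. Mitochondrial genes took 2.78% to 3.47% in DIS3-sh1 and 2.20% to 2.23% in Scramble. With both kinds of genes left out of the fit, 8 of the 9 regulators were again called lower. In such bulk samples, fewer cells expressing a gene and less of its RNA per cell cannot be told apart, and CPM are shares of a library.

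**Figure D1:**
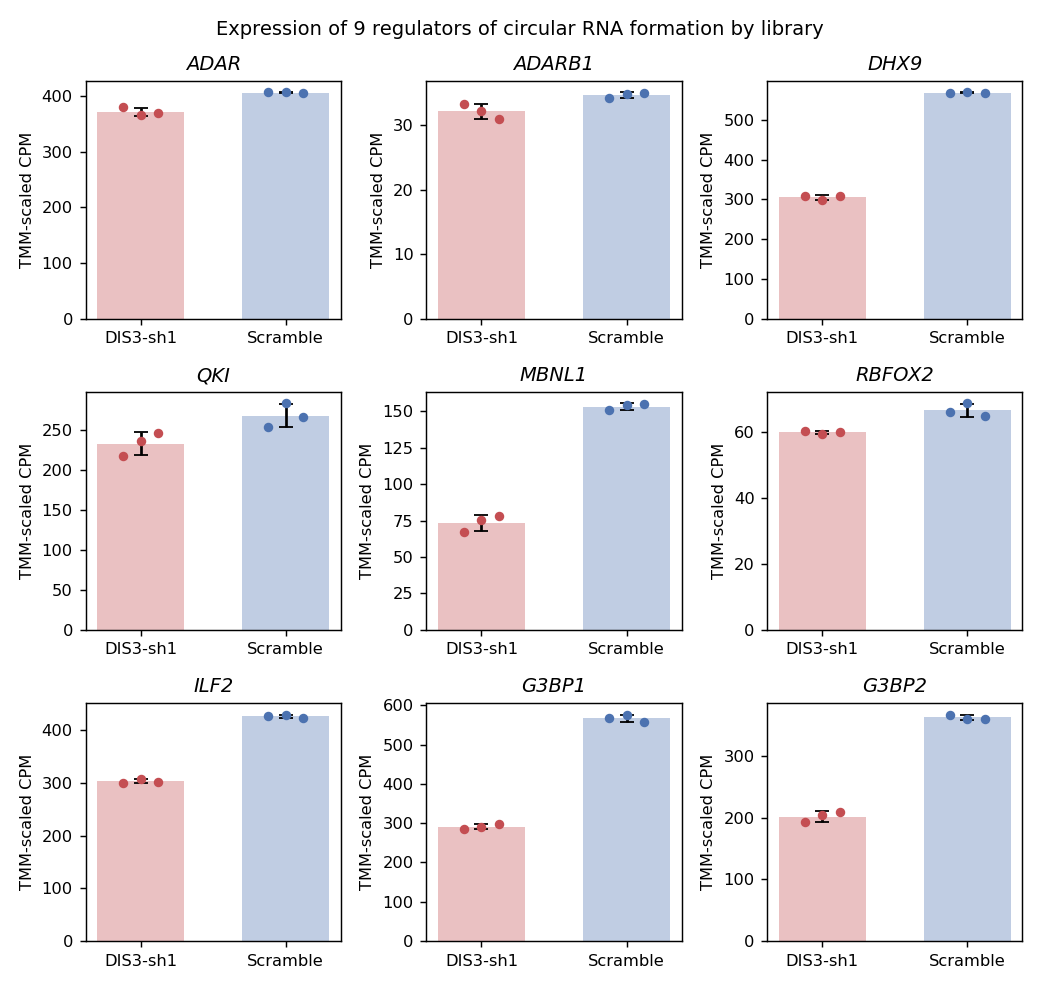
Level of each regulator in the 6 libraries, in TMM-scaled CPM, with DIS3-sh1 left and Scramble right. Bars are means, error bars are SD (n = 3 each) and points are libraries; in every panel the DIS3-sh1 points lie below the Scramble points, and as a fold change the gap is widest in MBNL1, G3BP1, DHX9 and G3BP2.

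RNA editing enzymes and the helicase that acts on paired Alu repeats differed in the size of their change. DHX9 (ENSG00000135829.17, chromosome 1, 182839369 to 182887751, plus strand, GENCODE 29 on GRCh38) measured 307.4, 297.4 and 309.7 CPM in the DIS3-sh1 libraries and 567.8, 569.3 and 568.0 CPM in the Scramble libraries. The Scramble libraries were nearly equal, and all 3 DIS3-sh1 libraries sat far below them. The means were 305 ± 6.54 CPM in DIS3-sh1 and 568 ± 0.77 CPM in Scramble (SD, n = 3 each), which is a change of -0.90 ± 0.03 on the log2 scale (SE, edgeR, adjusted p = 8.94e-24).

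ADAR, the main editing enzyme ADAR1, changed little (ENSG00000160710.18, chromosome 1, 154582057 to 154628013, minus strand). It measured 380.4, 366.9 and 370.0 CPM in the DIS3-sh1 libraries and 406.95, 406.96 and 406.5 CPM in the Scramble libraries. The groups did not overlap, and the log2 fold change was -0.13 ± 0.03 (SE, edgeR, adjusted p = 5.78e-05). With upper-quartile scaling, which shifts the median of all genes upward, the change was -0.05 and was not called (adjusted p = 0.102). ADARB1, which encodes ADAR2, the editor of glutamate receptor mRNAs in neurons, was the least abundant regulator (ENSG00000197381.17, chromosome 21, 45073853 to 45226560, plus strand). It measured 33.2, 32.3 and 30.9 CPM in the DIS3-sh1 libraries and 34.2, 34.8 and 35.0 CPM in the Scramble libraries. The groups lay side by side with little gap, and its change of -0.11 ± 0.06 on the log2 scale did not pass the test (edgeR, adjusted p = 0.101).

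Counts of ADAR were 11.5, 11.4 and 12.0 times those of ADARB1 in the DIS3-sh1 libraries and 11.9, 11.7 and 11.6 times in the Scramble libraries. Such a ratio within a library needs no scaling between libraries. The groups overlapped, with a difference of -0.02 on the log2 scale (exact two-sided permutation test, n = 3 each, p = 0.6, adjusted over 4 ratios p = 0.6).

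Among the proteins that bind introns or exons, MBNL1 had the largest fall of the 9 regulators (ENSG00000152601.18, chromosome 3, 152243828 to 152465780, plus strand). It measured 67.2, 75.1 and 78.1 CPM in the DIS3-sh1 libraries and 150.9, 154.1 and 155.0 CPM in the Scramble libraries. DIS3-sh1 replicate 1, the library with the highest share of small structural RNA, was the lowest, but every DIS3-sh1 library was far under the Scramble range. The means were 73.5 ± 5.65 CPM in DIS3-sh1 and 153 ± 2.13 CPM in Scramble (SD, n = 3 each), which is a change of -1.06 ± 0.04 on the log2 scale (SE, edgeR, adjusted p = 5.63e-20), and its log2 fold change was -0.997 without that library.

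MBNL1 and its paralog MBNL2, which bind similar sequences, went in opposite directions. MBNL2 rose, with 41.5, 41.1 and 44.7 CPM in the DIS3-sh1 libraries against 28.8, 28.5 and 29.1 CPM in the Scramble libraries (log2 fold change 0.56 ± 0.06 SE, edgeR, adjusted p = 5.23e-10). MBNL3, the third paralog, fell by 0.29 ± 0.05 on the log2 scale, with 46.1 ± 2.09 CPM in DIS3-sh1 and 56.5 ± 2.67 CPM in Scramble (SD, n = 3 each). MBNL1 counts were 1.62, 1.83 and 1.75 times those of MBNL2 in the DIS3-sh1 libraries and 5.24, 5.42 and 5.33 times in the Scramble libraries. The groups were wide apart, with a difference of -1.62 on the log2 scale, and p = 0.1 is the smallest that 3 against 3 libraries can give (exact two-sided permutation test, adjusted over 4 ratios p = 0.133).

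QKI, a STAR family protein that binds introns beside circularised exons, changed less and varied most among replicates of Scramble (ENSG00000112531.17, chromosome 6, 163414000 to 163578596, plus strand). It measured 217.3, 235.9 and 246.0 CPM in the DIS3-sh1 libraries and 254.3, 283.2 and 266.5 CPM in the Scramble libraries. The highest DIS3-sh1 library and the lowest Scramble library were close, though the groups did not overlap. The log2 fold change was -0.20 ± 0.04 (SE, edgeR, adjusted p = 0.000526), -0.15 without DIS3-sh1 replicate 1 and -0.12 with upper-quartile scaling, where the call held (adjusted p = 0.0204).

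RBFOX2 was among the least abundant (ENSG00000100320.24, chromosome 22, 35738736 to 36028425, minus strand). It measured 60.5, 59.5 and 60.0 CPM in the DIS3-sh1 libraries and 66.2, 68.8 and 65.1 CPM in the Scramble libraries. The DIS3-sh1 libraries were almost equal and all lower, for a log2 fold change of -0.15 ± 0.04 (SE, edgeR, adjusted p = 0.00373). The call was lost with upper-quartile scaling, at -0.07 (adjusted p = 0.161).

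ILF2, or NF45, lay between the strongly and the weakly changed genes (ENSG00000143621.17, chromosome 1, 153661788 to 153671048, minus strand). It measured 299.7, 307.2 and 302.4 CPM in the DIS3-sh1 libraries and 428.4, 429.4 and 423.8 CPM in the Scramble libraries. Replicates were tight in both groups, and the log2 fold change was -0.50 ± 0.03 (SE, edgeR, adjusted p = 3.52e-17).

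Both G3BP genes fell strongly. G3BP1 (ENSG00000145907.16, chromosome 5, 151771045 to 151812785, plus strand) measured 286.3, 290.2 and 297.5 CPM in the DIS3-sh1 libraries and 568.7, 576.2 and 558.5 CPM in the Scramble libraries. The means were 291 ± 5.66 CPM in DIS3-sh1 and 568 ± 8.85 CPM in Scramble (SD, n = 3 each), which is a change of -0.96 ± 0.03 on the log2 scale (SE, edgeR, adjusted p = 2.53e-24). No library of either group came near the other group.

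G3BP2 (ENSG00000138757.15, chromosome 4, 75642782 to 75724525, minus strand) measured 192.8, 205.3 and 208.9 CPM in the DIS3-sh1 libraries and 368.1, 360.9 and 361.3 CPM in the Scramble libraries. It, too, was lower in each DIS3-sh1 library, and changed by -0.85 ± 0.03 on the log2 scale (SE, edgeR, adjusted p = 2.39e-21). Counts of G3BP1 were 1.48, 1.41 and 1.42 times those of G3BP2 in the DIS3-sh1 libraries and 1.54, 1.60 and 1.55 times in the Scramble libraries. The ratio was lower in each DIS3-sh1 library, with a difference of -0.12 on the log2 scale (exact two-sided permutation test, p = 0.1, adjusted over 4 ratios p = 0.133).

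**Figure D2:**
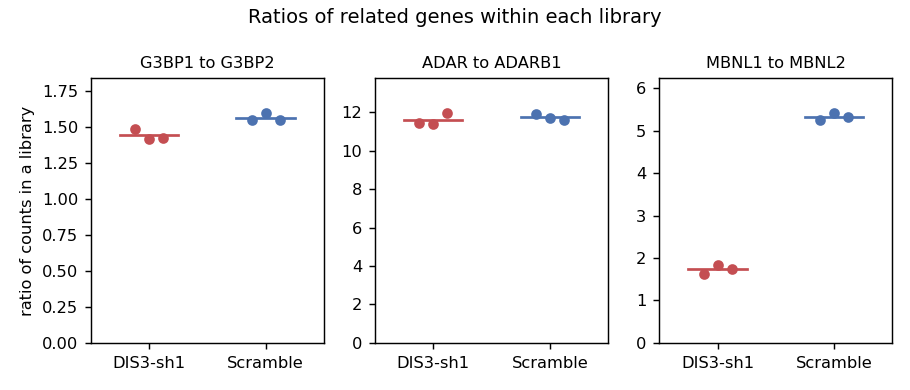
Ratio of the counts of related genes within each library, from 0, with DIS3-sh1 left and Scramble right. Points are libraries and lines are means; the groups stand far apart for MBNL1 to MBNL2, narrowly apart for G3BP1 to G3BP2, and overlap for ADAR to ADARB1.

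Set among all 19591 genes tested, the 4 strongly reduced regulators lay near the lower end. Of the genes tested, 3.33% had a lower log2 fold change than MBNL1, 4.46% than G3BP1, 5.44% than DHX9 and 6.42% than G3BP2. For ILF2 the share was 18.02%. QKI, RBFOX2, ADAR and ADARB1 lay well inside the bulk of genes, with 35.4%, 38.5%, 40.2% and 41.4% of genes below them.

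**Figure D3:**
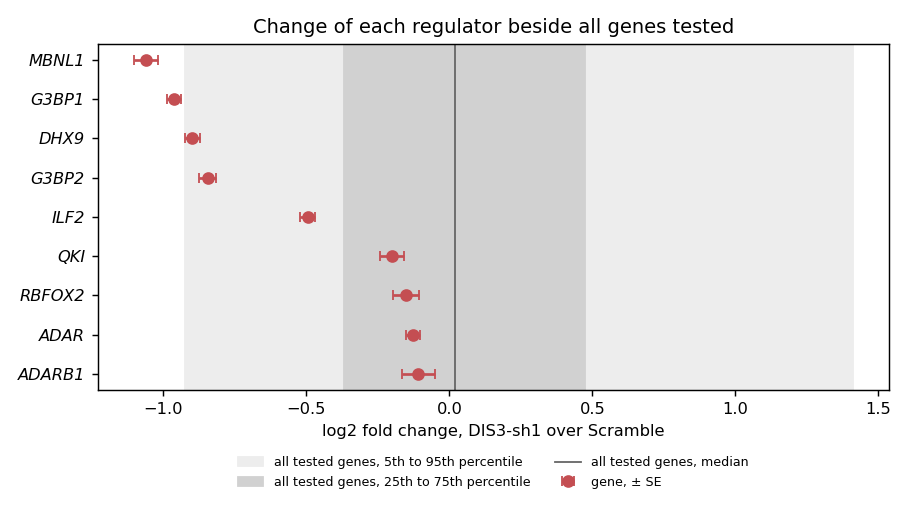
Log2 fold change of each regulator, DIS3-sh1 over Scramble, as a point with its SE, on the background of all genes tested. MBNL1 and G3BP1 lie below the 5th percentile of all genes, at -0.93, while QKI, RBFOX2, ADAR and ADARB1 lie between the 25th percentile, at -0.37, and the median.

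Levels of different genes were compared as CPM per kilobase of annotated exon, which assumes that all annotated exons are used. ILF2 was the highest in both groups, at 132.9 ± 1.68 CPM per kilobase in DIS3-sh1 and 187.3 ± 1.30 in Scramble, followed by DHX9 at 54.0 ± 1.16 in DIS3-sh1 and 100.7 ± 0.14 in Scramble. In DIS3-sh1 the order went on with ADAR at 38.4 ± 0.73 CPM per kilobase, G3BP2 at 28.2 ± 1.18 and G3BP1 at 23.5 ± 0.46. In Scramble ADAR came after both G3BP genes, at 50.6 ± 0.56 CPM per kilobase for G3BP2, 45.8 ± 0.71 for G3BP1 and 41.98 ± 0.03 for ADAR. QKI and MBNL1 were apart in DIS3-sh1, at 13.4 ± 0.84 and 7.35 ± 0.57 CPM per kilobase, and overlapped in Scramble, at 15.4 ± 0.83 and 15.4 ± 0.21. RBFOX2, at 5.99 ± 0.05 CPM per kilobase in DIS3-sh1 and 6.66 ± 0.19 in Scramble, and ADARB1, at 3.20 ± 0.11 in DIS3-sh1 and 3.45 ± 0.04 in Scramble, were the lowest in both (SD, n = 3 each). No other neighbours in either order overlapped.

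Overlapping genes could share reads with 5 of the 9 regulators. For overlaps on opposite strands this depends on the use of strand in the counting, which is not given in the sources used here. The genes on the opposite strand with shared exonic sequence were SNAPIN at ILF2, ATOX1 at G3BP1, MBNL1-AS1 at MBNL1 and SSR4P1 at ADARB1. Their counts came to 8.75%, 4.62%, 5.12% and 9.62% of the counts of these regulators. SNAPIN (-0.57 on the log2 scale) and ATOX1 (-0.30) fell, while MBNL1-AS1 and SSR4P1 were not called (adjusted p = 0.338 and 0.525). A Y RNA copy overlaps an exon of G3BP2 on the same strand, with 0.0166% of its counts. The processed copies G3BP1P1, DHX9P1 and ILF2P1 held 0.594%, 0.0242% and 0.0043% of the counts of G3BP1, DHX9 and ILF2. DIS3 shares exonic sequence with BORA and PIBF1 on the opposite strand, whose counts came to 30.8% and 39.4% of its own. Whether shared reads are part of the DIS3 level was not tested.

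Other proteins with a known part in back-splicing were mostly lower too. Of 27 listed, 24 were tested, 18 were called lower, 3 were called higher and 3 had no call. Over all genes tested 32.6% were called lower, and 54.4% of the genes at least as abundant as ADARB1. Their median on the log2 scale was -0.47. SFPQ, a paraspeckle protein that binds long introns, averaged 368 ± 9.12 CPM in DIS3-sh1 and 922 ± 5.30 CPM in Scramble (SD, n = 3 each), and fell by 1.33 on the log2 scale. The splicing factors SRSF1 (-1.19 ± 0.03 SE), SRSF6 (-1.13 ± 0.03) and HNRNPM (-1.06 ± 0.03) fell, and so did the RNA-binding protein TARDBP (-0.95 ± 0.03). The 3 that rose were MBNL2, NOVA2, a neuronal splicing regulator (0.70 ± 0.11), and RBM20, which shapes titin splicing in the heart (0.41 ± 0.04). The 3 not called were NONO (log2 fold change 0.04), KHDRBS1 (-0.05) and RBFOX3 (-0.22).

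Factors of circular RNA turnover, modification and export included changes in both directions. Of 17 tested, 13 were lower, 2 higher and 2 not called, with a median of -0.31. The share called lower was 32.6% over all genes and 54.4% over the genes at least as abundant as ADARB1. POP1, a subunit of RNase P and RNase MRP, which cut methylated circular RNAs, averaged 22.5 ± 0.50 CPM in DIS3-sh1 and 61.8 ± 2.37 CPM in Scramble (SD, n = 3 each), and fell by 1.46 on the log2 scale. DDX39A, a helicase in the export of short circular RNAs, fell by 1.19 on the log2 scale. XPO4, an exportin (-0.68 ± 0.04 SE), and YTHDF2, which binds methylated adenosines (-0.49 ± 0.03), fell as well. The GW182 paralogs TNRC6A and TNRC6B, partners of Argonaute in silencing, were apart: TNRC6A measured 79.0 ± 1.96 CPM in DIS3-sh1 and 161 ± 2.63 CPM in Scramble (-1.03 ± 0.04 SE), and TNRC6B measured 318 ± 6.36 CPM in DIS3-sh1 and 175 ± 0.46 CPM in Scramble (0.87 ± 0.03). The third paralog, TNRC6C, fell (-0.48 ± 0.05 SE), so that TNRC6B alone among these paralogs rose. EIF2AK2, the kinase PKR that circular RNAs can bind, rose too (0.26 ± 0.04). RIDA, which recruits RNase P and RNase MRP to methylated circular RNAs, was not called (-0.04, edgeR, adjusted p = 0.711).

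Of 23 listed double-stranded RNA-binding proteins and related helicases, 19 were tested, 13 were lower, 3 higher and 3 not called, with a median of -0.32. Again, 32.6% of all genes and 54.4% of those at least as abundant as ADARB1 were called lower. DHX15, a helicase of spliceosome disassembly (-0.98 ± 0.03 SE), and SON, a speckle protein (-0.92 ± 0.02), fell, beside -0.90 for DHX9. NKRF (-0.65), DGCR8 (-0.65) and STAU1 (-0.54), which takes part in RNA transport and decay, fell by less. IFIH1, the cytosolic sensor MDA5, rose by 0.80 ± 0.16 on the log2 scale at a low level, 5.23 ± 1.03 CPM in DIS3-sh1 and 3.01 ± 0.21 CPM in Scramble. EIF2AK2 is also on this list. PRKRA, an activator of PKR, rose by 0.16 on the log2 scale, a call that was lost without DIS3-sh1 replicate 2 (edgeR, adjusted p = 0.0697) and without Scramble replicate 2 (0.0658) or 3 (0.0517). STRBP (-0.01), DHX30 (0.02) and RIGI (0.02) were not called.

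Genes of stress granule proteins other than G3BP1 and G3BP2 moved both ways, most of them down. Of 15 tested, 10 were lower, 3 higher and 2 not called, with a median of -0.20. Lower calls made up 32.6% of all genes tested and 54.4% of those at least as abundant as ADARB1. DDX3X (-0.62), TIAL1 (-0.61) and PRRC2C (-0.57) fell. CAPRIN1 and USP10, which bind G3BP1 directly, also fell (-0.56 and -0.57), beside -0.96 for G3BP1, a difference that was not tested. CAPRIN1 measured 447 ± 11.6 CPM in DIS3-sh1 and 658 ± 3.08 CPM in Scramble. The 3 that rose were ATXN2L (0.44), the poly(A)-binding protein gene PABPC1 (0.43) and TIA1 (0.38). FXR2 (0.08) and FMR1 (-0.05) were not called.

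The list of relatives of the regulators, which also holds PTBP and CELF splicing regulators of other families, showed no common direction. Of 15 listed, 12 were tested, 6 were lower, 3 higher and 3 not called, with a median of -0.26. Besides MBNL2 and MBNL3 above, SF1, a branch point protein related to QKI (-0.60), and ZFR, a zinc finger RNA-binding protein (-0.43), fell. PTBP1 (-0.51) and PTBP2 (-0.74), repressors of exon inclusion, fell too. KHDRBS3, a STAR protein like QKI, rose (0.19 ± 0.05 SE), and so did CELF2 (0.28 ± 0.04). KHDRBS1 and RBFOX3 were not called, nor was CELF1 (-0.01). RBFOX1, ADARB2 and KHDRBS2 were below the filter, with 1, 1 and 0 counts over the 3 DIS3-sh1 libraries and 0 counts each over the 3 Scramble libraries. In each of these lists the share called lower may be read against 32.6% of all genes, or 54.4% of the genes at least as abundant as ADARB1.

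**Figure D4:**
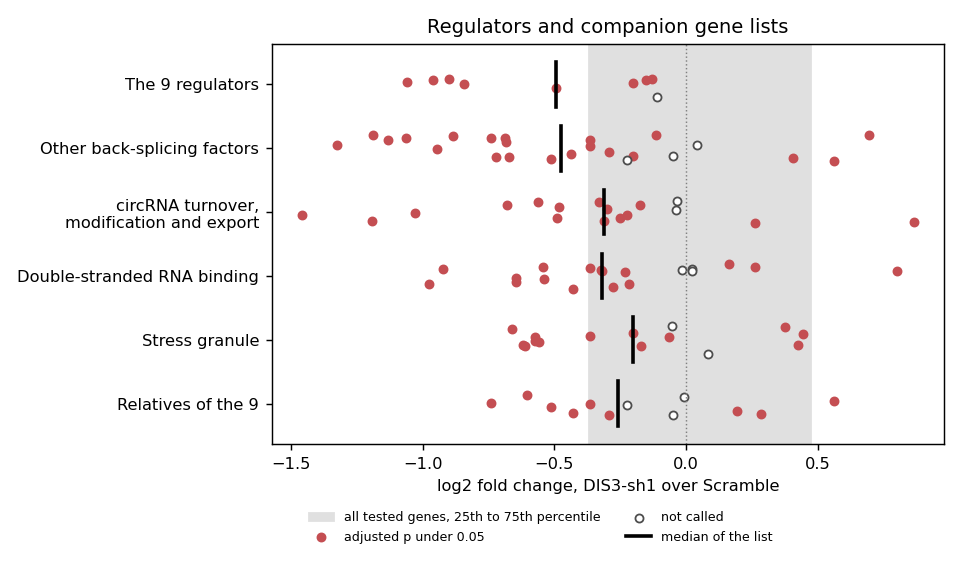
Log2 fold change, DIS3-sh1 over Scramble, of each tested gene of the 9 regulators and of 5 companion lists, some genes being in several. Filled points have an adjusted p under 0.05, open points were not called, and black lines are medians, from -0.50 for the 9 regulators to -0.20 for stress granule genes; the grey band spans the middle of all genes tested.

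The genes whose levels followed each regulator most closely over the 6 libraries were searched among 11969 genes that averaged 5 CPM or more. Closeness was the Euclidean distance between log2 CPM profiles centred on their own means, and it is a description, since group and library composition are shared by all genes. The nearest were NOL7 and EEF1E1 for MBNL1 (distances of 0.0665 and 0.0698), DHX15 and ARF4 for G3BP1 (0.0253 and 0.0429), PSMB2 and HNRNPH1 for G3BP2 (0.0416 and 0.0447) and GLA and PSMD11 for DHX9 (0.0337 and 0.0401). For ILF2 they were SF3B3 and PAICS (0.0156 and 0.0187), and for QKI they were OMA1 and PIGK (0.0390 and 0.0426). STK25 and RPS7P1 were nearest to ADAR (0.0265 and 0.0325), TFDP1 and GTF2IP4 to ADARB1 (0.0356 and 0.0366), and DHFRP1 and XPO5 to RBFOX2 (0.0275 and 0.0356).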

How the data were processed

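Build hg38 and the tools featureCounts 1.5.1, SAMtools, HISAT2 2.1.0 and Bowtie2 2.3.5 are named in the submitters' processing notes; their roles, the annotation and the use of strand are not given in the sources used here. The authors deposited unscaled estimated counts of reads per gene, made before any normalization as far as the values show; they are partly fractional (53.2% to 56.03% of values above 0 were whole), so reads of similar genes may be split. Of 9 per-sample columns, 6 matched sample labels; 3 matched none and were not used. The planned comparisons with DIS3-sh2 were therefore not made.

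Counts were rounded, and edgeR 4.0.16 (R 4.3.3) was used for the tests (TMM scaling, filterByExpr by group, group as the only term, robust quasi-likelihood F-test, two-sided, Benjamini-Hochberg over 19591 genes, threshold 0.05), after a test on simulated data. The simulated data held a far smaller share of changed genes than was called here, so that test does not cover such broad change. Each SE was taken as |log2 fold change| over the root of F. Alternatives were RLE and upper-quartile scaling, DESeq2 1.42.0, limma-voom (limma 3.58.1), no filter, a replicate block, no small structural or mitochondrial genes, and leaving out each library. Symbols matched 61803 identifiers; coordinates and exon lengths came from GENCODE 29. The 9 genes and all lists were chosen with earlier results of these data known. Named genes are the 9 regulators, DIS3, all tested relatives and up to 6 genes with the smallest p of each other list. For each regulator, the 2 genes nearest in profile are named as well. Cell line markers beyond these, list members that rose, were not called or lost a call, TNRC6C and overlapping genes were named after their values were seen. Values of a few list genes, and 1 of the 4 ratios computed, are not reported here; counts and medians of the lists include these genes.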

Additional observations from a re-analysis of the deposited data

How the results depend on the processing

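Over 13 alternative settings, DHX9, MBNL1, ILF2, QKI, G3BP1 and G3BP2 were called lower in each, MBNL1 at log2 fold changes of -1.11 to -0.98, G3BP1 at -0.98 to -0.88 and QKI at -0.24 to -0.12. ADARB1 was called in none (-0.13 to -0.03, adjusted p = 0.0651 to 0.681). ADAR and RBFOX2 lost their calls with upper-quartile scaling alone (-0.047 and -0.072), which left 6 of the 9 regulators called lower. That scaling moved the median of all genes to 0.10, against 0.02 with TMM, and gave 7745 genes higher and 5471 lower, against 6751 and 6379. It also turned genes that had no call upward. These were CELF1 at 0.072 (called higher, edgeR, adjusted p = 0.0254), FMR1 at 0.027, KHDRBS1 at 0.030, RIDA at 0.044 and STRBP at 0.066. Genes far from 0 moved upward too, DIS3 from -2.71 to -2.63 and DHX9 from -0.90 to -0.82. Why this scaling and TMM differ was not tested. DHX30 (0.10, adjusted p = 0.0102), FXR2 (0.17, adjusted p = 0.00221) and NONO (0.12, adjusted p = 2.36e-05) were called higher with upper-quartile scaling. NEFM lost its call with that scaling (-0.057, edgeR, adjusted p = 0.266). CDC40, a listed back-splicing factor, lost its call with that scaling and without DIS3-sh1 replicate 1 or Scramble replicate 2. PRPF8, on the same list, lost its call with that scaling (-0.035), DESeq2 and limma-voom. It also lost it without DIS3-sh1 replicate 1 or 2, or without Scramble replicate 2. Over the settings, 16 to 19 genes of this list were called lower. KHDRBS1 was called lower with RLE scaling (-0.063), with DESeq2 (-0.063) and without small structural and mitochondrial genes (-0.058). Without DIS3-sh1 replicate 1 NONO was called higher (0.063), and without DIS3-sh1 replicate 3 FMR1 was called lower (-0.091). Leaving out 1 library at a time gave ranges that cross 0 for CELF1 (-0.022 to 0.0040), DHX30 (-0.025 to 0.051), MBNL1-AS1 (-0.0044 to 0.26), RIDA (-0.15 to 0.021), RIGI (-0.16 to 0.15) and STRBP (-0.041 to 0.022). Same-numbered libraries deviated together only weakly (r = 0.037, 0.014 and 0.010), but each library correlated best with its own number. With 3 libraries a group, these values cannot tell whether the numbers pair the samples. With the replicate block, 6769 genes were higher and 6397 lower, and 8 of the 9 regulators were lower. The 3 ratios given kept their direction with 0.5 added to the counts and without each library. The fit of only the 2 groups compared is the same as the fit given, since 2 groups were used, and nothing was run with DIS3-sh2. Calls rest on 3 libraries a group and on 647 or more counts per regulator and library, and a change as small as that of ADARB1 was not detectable with these.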
